A study of Sus scrofa with 8 samples.

Results

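The genes described here encode the machinery of oxidative phosphorylation: subunits of the respiratory chain and of the ATP synthase, cytochrome c, and a few assembly factors. They were found by gene symbol in the array's annotation, by the prefixes NDUFA, NDUFB, NDUFC, NDUFS, NDUFV, UQCR and ATP5 and by the names of the SDH, cytochrome c and COX subunits. This gave 64 genes of the 6765 with a symbol of their own on the array, read by 81 of 23999 probe sets. A probe set is the group of short probes that reads 1 transcript, and for genes with several the set with the highest mean over the 8 arrays was taken. All 64 genes passed the filter on low values, a mean log2 level above the 40th percentile (5.27). The 64 genes fall into 32 subunits of complex I, 4 of complex II, 2 of complex III, 8 of complex IV and 13 of complex V. The rest are cytochrome c (CYCS) and 4 genes grouped as assembly factors. NDUFA4, named for complex I but now counted as a subunit of complex IV, was placed in complex IV. ATP5S, which the ATP5 prefix brings in although it is not a core subunit of the synthase, was placed with the assembly factors NDUFAF1, NDUFAF2 and NDUFAF3. CYC1, UQCRC1, COX4I1, COX5A and COX6A2 and the genes of the mitochondrial genome were not analysed here.

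The samples were biceps femoris, a hind-limb muscle, from female domestic piglets in a model of acute quadriplegic myopathy, the limb weakness of intensive care patients. There was 1 Affymetrix porcine array per sample, with 4 control and 4 corticosteroid arrays, all from day 5. In both protocols the piglets were anaesthetised with isoflurane, supplemented by morphine and ketamine, mechanically ventilated, warmed, given fluid and glucose, and treated with streptomycin and bensylpenicillin. The corticosteroid piglets also received bolus doses of hydrocortisone, a glucocorticoid. The control protocol adds an Escherichia coli endotoxin infusion of 36 µg/kg/h for 1 h, although these samples' source label does not mention it. It speaks of 4 piglets averaging 25.5 kg, while the corticosteroid protocol speaks of 8 averaging 26.4 kg. The series text describes the neuromuscular blocker pancuronium bromide for 5 days without naming the animals. Endotoxin, blocker and group therefore cannot be told apart here, and neither group stands for healthy, moving muscle. The labels do not say that each array is a separate animal, so the p-values measure only the spread between these arrays.

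Oxidative phosphorylation takes place in the inner mitochondrial membrane. Complexes I and II pass electrons from NADH and succinate to ubiquinone, complex III passes them on to cytochrome c, and complex IV hands them to oxygen. Complexes I, III and IV pump protons, and complex V, the ATP synthase, lets the protons back in to make ATP. Muscle fibres differ in how much of this machinery they hold, and slow fibres are typically rich in it. Several complex IV subunits exist as a form made mainly in heart and skeletal muscle and a form made in most tissues.

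Before any comparison, the corticosteroid values had to be set against the right probe sets. In the deposited table the corticosteroid columns line up with the controls only when the probe set names are sorted with full stops ignored, so the values were re-assigned in that order, which moved 9389 of 23999 rows. This touched 30 of the 64 members. Across these 30 genes the correlation of the group means was -0.049 as deposited and 0.992 after re-ordering, and it was 0.973 over the 34 members whose row is the same in both orders. These correlations run across genes, which are not independent replicates. The median log2 difference was 0.090 over the 34 and 0.13 over the 30, and values for the 30 hold only under the re-ordering.

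No member passed the test, and the picture over the arrays was uneven. Most subunit means lay slightly higher in corticosteroid-treated muscle, the largest of these differences in complex I, while cytochrome c lay lower on every treated array. The higher means rested to a large part on 1 array, corticosteroid replicate 4. Of the 64 members, 49 (76.6%) had a higher and 15 a lower mean with corticosteroid, with a median log2 difference of 0.12. Over all 5406 genes tested, 54.0% had a higher mean and the median log2 difference was 0.029. In limma, 0 of 64 members had a Benjamini-Hochberg adjusted p under 0.05, as did 0 of all 14361 probe sets tested (0%), of which 1363 had an unadjusted p under 0.05. The members' adjusted p-values in limma ran from 0.469 to 0.998.

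At an unadjusted p under 0.05 there were 4 members with higher means (6.25%, against 5.27% of all genes tested) and 1 with a lower mean (1.56%, against 3.9%). The higher ones were NDUFV3, NDUFB7, NDUFV1 and ATP5G2, and the lower one was CYCS, all 5 among the 34 whose row was not moved. The groups did not overlap for 2 members with higher means (3.12%, against 3.4% of all genes) and for 1 with a lower mean (1.56%, against 2.02%). These shares lay near or below the background, so the counts single out nothing about the members. The shift was small per gene: 40 of 64 log2 differences lay within 0.20 of 0, and 5 were larger than 0.50 in size. When each array was left out in turn, 28 members kept a higher mean and 9 a lower mean in all 8 fits.

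**Figure D1:**
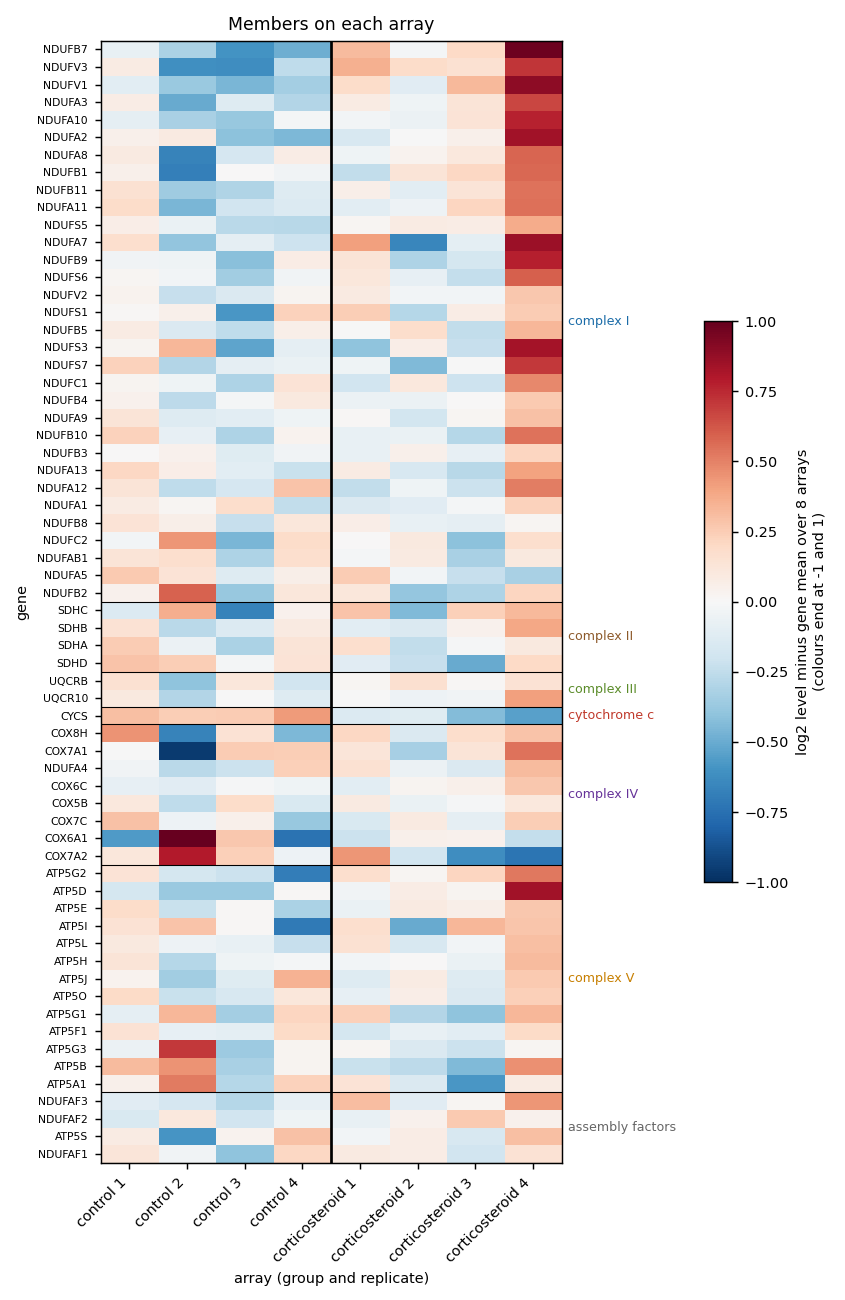
Centred log2 level of the 64 members (rows, ordered by complex and by group difference) on the 8 arrays (columns), as the level minus the gene's mean over 8 arrays, with red above and blue below it. Corticosteroid replicate 4 is the highest array for 42 of 64 members, and CYCS is blue on all 4 corticosteroid arrays.

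One array carried much of the pattern. Corticosteroid replicate 4 held the highest value of the 8 arrays for 42 of 64 members (65.6%), including 27 of 32 complex I subunits (84.4%) and 8 of 13 complex V subunits, whereas it was the highest array for 21.3% of all genes tested. The lowest value lay on control replicate 2 for 21 members (32.8%, against 23.6% of all genes tested). It lay on control replicate 3 for 20 members (31.2%, against 15.5%), including 14 of 32 complex I subunits (43.8%). The mean centred level of complex I was -0.26 on control replicate 3, its lowest of the 8 arrays. The mean centred log2 level over all 64 members was 0.35 on corticosteroid replicate 4 and lay between -0.18 and 0.075 on the other 7 arrays. Without that array, 34 of 64 members had higher means and the median log2 difference was 0.018. For complex I, 16 of 32 means were then higher, with a median log2 difference of 0.0085. Without control replicate 2 and corticosteroid replicate 4 together, the median over the members was 0.00060. With arrays weighted by their quality in limma, 39 of 64 means were higher and the median was 0.055. For CYCS the same array was the lowest of the 8, and the difference was -0.54 without it.

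The arrays were otherwise alike in overall level, with medians of 5.863 to 5.965 log2 units. Of 11 slow-fibre and 14 fast-fibre markers listed, 9 and 8 had a symbol of their own, and all of these passed the filter on low levels. The slow-fibre markers had a median log2 difference of -0.98, with 9 of 9 means lower with corticosteroid, and a mean centred level of -0.33 to 1.13 on control and -0.77 to -0.11 on treated arrays. The fast-fibre markers had a median log2 difference of 0.39, with 8 of 8 means higher. Their centred levels were -0.89 to 0.16 on control and 0.068 to 0.37 on treated arrays. Without control replicate 2 the fast-fibre median was 0.21, with 7 of 8 higher, and the slow-fibre median -0.93. Without control replicate 2 and corticosteroid replicate 4 together they were 0.17 and -0.64. The 8 macrophage markers stood at 1.89 on control replicate 2 and at 0.024 or less on the other arrays, and 0 of 4 neutrophil markers passed the filter. The part of fibre type or of immune cells in the results below was not tested. In whole muscle, fewer cells of a type and less RNA per cell cannot be told apart.

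Complex I, the entry point for electrons from NADH and the largest complex, had 26 of 32 means higher in corticosteroid-treated muscle, with a median log2 difference of 0.14 and a range from -0.18 to 0.74. The leading genes were 2 flavoprotein subunits of the arm that takes up NADH (NDUFV3 and NDUFV1) and the membrane-arm subunit NDUFB7. All 5 core subunits measured here (NDUFS1, NDUFS3, NDUFS7, NDUFV1 and NDUFV2, which belong to the path that takes electrons from NADH to ubiquinone) had higher means, with a median log2 difference of 0.14. The 27 accessory subunits had 21 higher means and a median log2 difference of 0.13. No complex I gene passed over all probe sets.

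NDUFV3, a small accessory subunit bound to the NADH-oxidising flavoprotein, had log2 levels of 7.21, 6.51, 6.50 and 6.87 on control replicates 1 to 4. On corticosteroid replicates 1 to 4 it had 7.48, 7.31, 7.28 and 7.84. All treated arrays lay above all controls, by a narrow margin over control replicate 1. The log2 difference was 0.70 (SE 0.21), with an adjusted p of 0.479 in limma.

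NDUFB7, an accessory subunit of the membrane arm on the intermembrane-space side, had log2 levels of 9.80, 9.55, 9.28 and 9.38 in controls. It had 10.18, 9.85, 10.07 and 10.86 with corticosteroid, so that here too the groups did not overlap. Corticosteroid replicate 2 lay just above control replicate 1, and replicate 4 stood highest. The log2 difference was 0.74 (SE 0.24), with an adjusted p of 0.479 in limma and 0.53 as the difference without corticosteroid replicate 4.

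NDUFV1 carries the flavin that accepts electrons from NADH. Its log2 levels were 9.12, 8.86, 8.77 and 8.89 in controls and 9.41, 9.11, 9.56 and 10.12 with corticosteroid. The groups just overlapped, at control replicate 1 and corticosteroid replicate 2. The log2 difference was 0.64 (SE 0.23), with an adjusted p of 0.479 in limma. Next by p was NDUFA3, an accessory subunit of the membrane arm, with a log2 difference of 0.42 (SE 0.20), which was 0.27 without corticosteroid replicate 4. A further 6 accessory subunits, NDUFA10, NDUFA2, NDUFA8, NDUFB1, NDUFB11 and NDUFA11, had log2 differences of 0.30 to 0.41, with adjusted p-values of 0.566 to 0.638 in limma. Without corticosteroid replicate 4 these were 0.22 for NDUFA10, 0.14 for NDUFA2, 0.19 for NDUFB11 and 0.17 for NDUFA11, and without control replicate 2 they were 0.17 for NDUFA8 and 0.16 for NDUFB1.

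The other core subunits differed far less. NDUFS1, the large iron-sulphur subunit, differed by 0.14 (SE 0.22) and NDUFV2, the partner of NDUFV1, by 0.15 (SE 0.14). NDUFS3 and NDUFS7, subunits of the module that reduces ubiquinone, differed by 0.13 (SE 0.29) and 0.11 (SE 0.25). They turned to -0.13 and -0.11 without corticosteroid replicate 4. Without control replicate 3 NDUFS1 turned to -0.025, and NDUFS3 turned as well. At the other end, NDUFB2 and NDUFA5, both accessory, differed by -0.18 (SE 0.24) and -0.16 (SE 0.19). The higher means were thus not shared evenly among subunits of 1 complex, and the tests of single genes do not show that any 2 subunits differed in response.

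**Figure D2:**
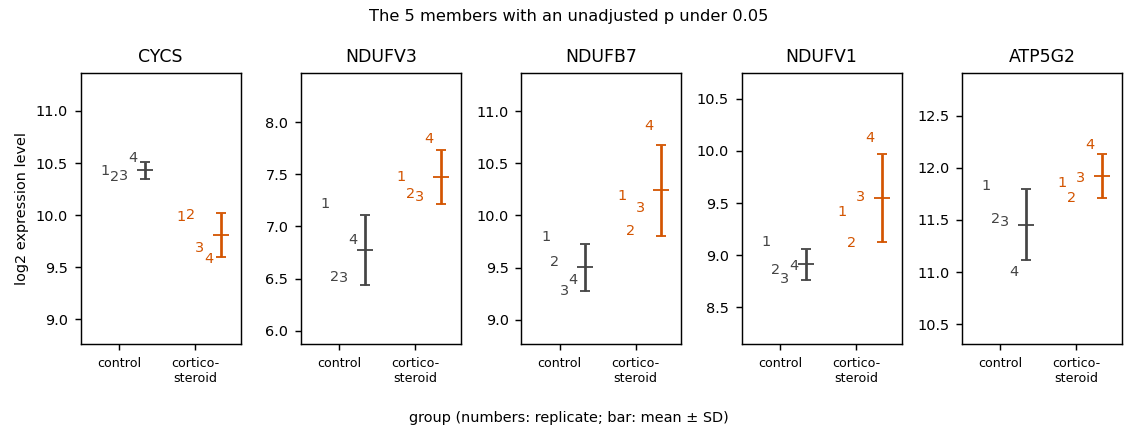
Log2 expression level of the 5 members with an unadjusted p under 0.05, with the replicate number drawn at each array's value and the group mean ± SD (n = 4) beside it; each panel spans the same log2 width. CYCS lies lower on all 4 corticosteroid arrays, NDUFV3 and NDUFB7 lie higher on all 4, and NDUFV1 and ATP5G2 overlap between the groups.

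Complex II, the succinate dehydrogenase that also serves the tricarboxylic acid cycle, had means close to those of controls. Of its 4 subunits, 3 had higher means, with a median log2 difference of 0.045, and of -0.029 without corticosteroid replicate 4. SDHD, a membrane anchor subunit, was the exception, with log2 levels of 11.12, 11.09, 10.82 and 10.97 in controls and 10.72, 10.61, 10.33 and 11.04 with corticosteroid. Treated replicates 1 to 3 lay below all controls and replicate 4 among them. The log2 difference was -0.32 (SE 0.18), with an adjusted p of 0.566 in limma. The flavoprotein SDHA differed by 0.0013 (SE 0.18), the iron-sulphur subunit SDHB by 0.088 (SE 0.16) and the other anchor, SDHC, by 0.20 (SE 0.27). The sign of SDHA turned without control replicate 2 or 3 or corticosteroid replicate 1 or 4, and that of SDHB without corticosteroid replicate 4. SDHC differed by 0.014 without control replicate 3 and by 0.38 without corticosteroid replicate 2.

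Complex III was represented by UQCRB and UQCR10, both small accessory subunits. UQCRB, a subunit near the ubiquinone site, had log2 levels of 11.87, 11.32, 11.83 and 11.53 in controls and 11.74, 11.88, 11.73 and 11.87 with corticosteroid. UQCR10 had 11.23, 10.84, 11.13 and 11.00 in controls and 11.12, 11.08, 11.10 and 11.54 with corticosteroid. For both genes control replicate 2 was the lowest array and the groups overlapped. The log2 differences were 0.17 (SE 0.15) and 0.16 (SE 0.16), with adjusted p-values of 0.702 and 0.734 in limma. They were 0.060 for UQCRB without control replicate 2 and 0.049 for UQCR10 without corticosteroid replicate 4.

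Cytochrome c was the member that stood lower on every treated array. CYCS encodes the small haem protein that shuttles electrons from complex III to complex IV and that, once released into the cytosol, takes part in starting apoptosis. Its log2 levels were 10.42, 10.37, 10.38 and 10.55 on control replicates 1 to 4 and 9.98, 10.00, 9.69 and 9.58 on corticosteroid replicates 1 to 4. The lowest control lay well above the highest treated array, and the control arrays lay close together. The mean was 10.43 ± 0.083 (SD, n = 4) in controls and 9.81 ± 0.21 (SD, n = 4) with corticosteroid, a log2 difference of -0.62 (SE 0.16) or a ratio of 0.652.

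CYCS had the smallest p of the 64 members. It did not pass over all probe sets, with an adjusted p of 0.469 in limma. The difference ran from -0.68 to -0.54 when each array was left out in turn, and its value does not depend on the order of the table. CYCS was thus lowest where complex I was highest: on corticosteroid replicate 4 its centred log2 level was -0.54, and the mean centred level of complex I was 0.48. On corticosteroid replicates 1 to 3 CYCS stood at -0.14, -0.12 and -0.43 and complex I at 0.022, -0.071 and -0.052.

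**Figure D3:**
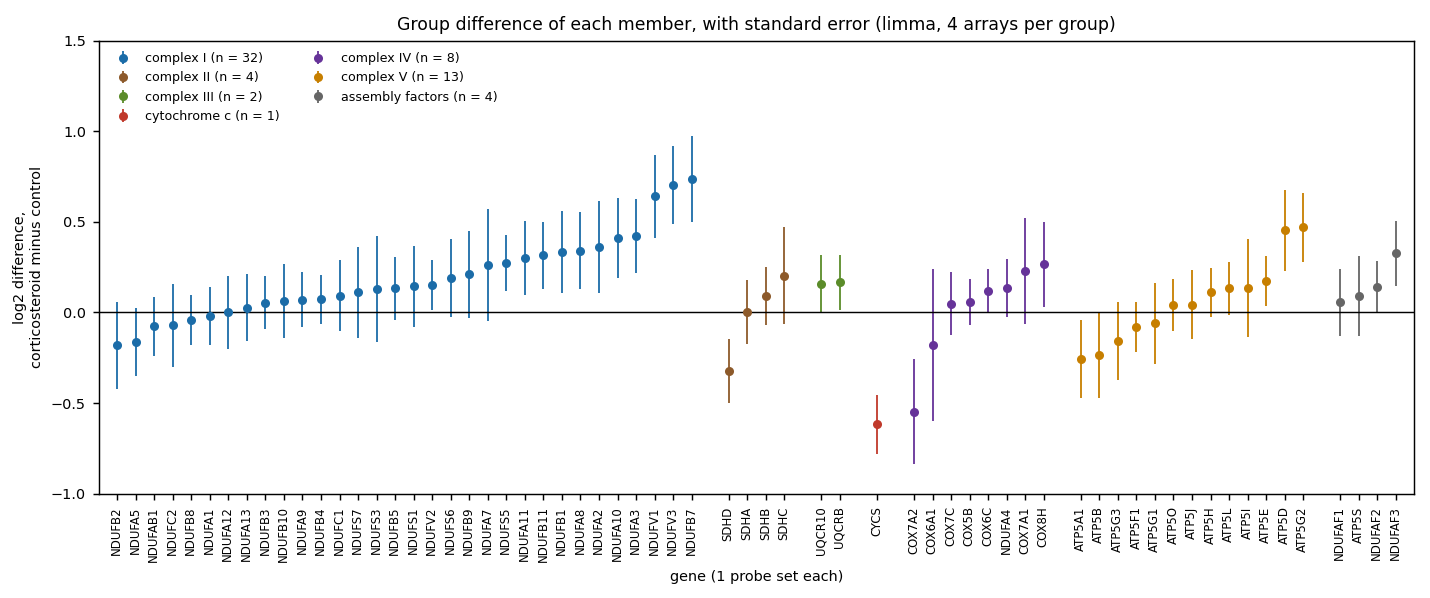
Log2 difference, corticosteroid minus control, of each of the 64 members, grouped by complex, with bars of 1 standard error from limma (4 arrays per group). Points run from -0.62 for CYCS to 0.74 for NDUFB7, and most bars cross or come close to 0.

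Complex IV, cytochrome c oxidase, had 6 of 8 means higher, with a median log2 difference of 0.090, and of 0.042 without corticosteroid replicate 4. COX5B and COX6C, structural subunits without a muscle form here, hardly differed, by 0.058 (SE 0.12) and 0.12 (SE 0.12). NDUFA4 differed by 0.14 (SE 0.16) and COX7C, another small structural subunit, by 0.047 (SE 0.17). COX5B changed sign without control replicate 2, and COX7C did so without control replicate 4 or corticosteroid replicate 4. The 4 remaining genes are the tissue isoforms, and there the values spread most.

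COX7A1 and COX8H are the forms of heart and skeletal muscle. COX7A1 had log2 levels of 11.17, 10.22, 11.43 and 11.42 in controls and 11.30, 10.84, 11.31 and 11.72 with corticosteroid. COX8H had 12.90, 11.79, 12.60 and 12.01 in controls and 12.67, 12.31, 12.64 and 12.75 with corticosteroid. For both, control replicate 2 was the lowest array and the groups overlapped. The log2 differences were 0.23 (SE 0.29) and 0.26 (SE 0.24), with adjusted p-values of 0.794 and 0.698 in limma, and -0.049 and 0.087 without control replicate 2.

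COX7A2 and COX6A1 are the forms found in most tissues. COX7A2 had log2 levels of 10.32, 11.00, 10.45 and 10.15 in controls and 10.65, 10.02, 9.59 and 9.48 with corticosteroid. The log2 difference was -0.55 (SE 0.29), with an adjusted p of 0.560 in limma. COX7A2 was highest on control replicate 2 and lowest on corticosteroid replicate 4, the same arrays that had the lowest and highest COX7A1. Without control replicate 2 the difference was -0.38.

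COX6A1 had the widest spread within a group of all members, with log2 levels of 9.05, 11.02, 9.88 and 8.88 in controls and 9.40, 9.67, 9.66 and 9.38 with corticosteroid. The control SD was 0.98 and the treated SD 0.16. The log2 difference of -0.18 (SE 0.42) became 0.26 without control replicate 2, so no direction can be given. That array is also the one with the high macrophage markers.

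The muscle and the general form of COX7A were compared within each array. COX7A1 minus COX7A2 was 0.85, -0.78, 0.98 and 1.27 log2 units on the controls and 0.65, 0.83, 1.72 and 2.24 on the treated arrays. The mean was 0.58 ± 0.92 (SD, n = 4) in controls and 1.36 ± 0.75 (SD, n = 4) with corticosteroid. The difference of 0.78 lay between the treated and the control SD. It did not pass a two-sided exact permutation test over 70 regroupings, with p = 0.286. The smallest p this design can give is 0.0286. Leaving out control replicate 2 gave 0.33, and leaving out corticosteroid replicate 4 gave 0.48. The same comparison for COX6A was not run, since COX6A2 was not analysed here.

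**Figure D4:**
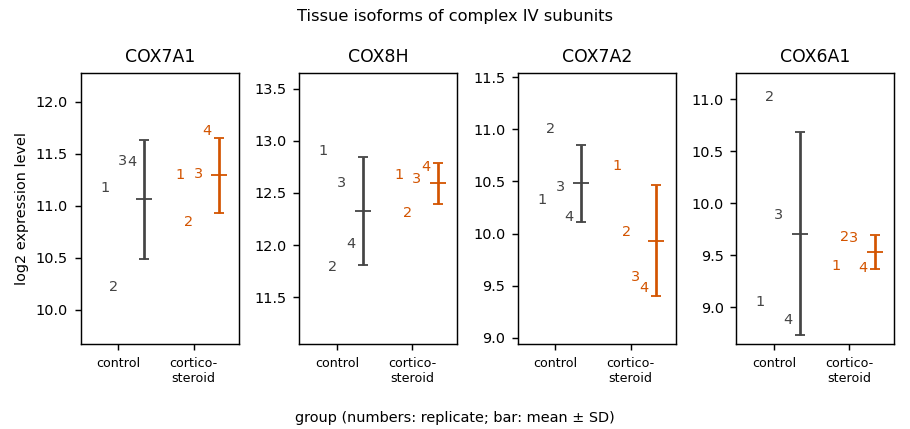
Log2 expression level of the muscle forms COX7A1 and COX8H and the general forms COX7A2 and COX6A1, with the replicate number drawn at each array's value and the group mean ± SD (n = 4) beside it; each panel spans the same log2 width. Control replicate 2 is lowest for both muscle forms and highest for both general forms, and the groups overlap for all 4 genes.

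Complex V, the ATP synthase, had 8 of 13 means higher, with a median log2 difference of 0.043 and a range from -0.26 to 0.47. Without corticosteroid replicate 4 the median was -0.031. Its parts did not lean the same way. In F1, the part that makes ATP, 2 of 4 means were higher, and among the genes of the rotating c ring 1 of 3. The 6 other subunits had 5 higher means, none beyond 0.14.

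ATP5G2 is 1 of the 3 genes that encode the same c-ring protein with different import sequences. It had log2 levels of 11.83, 11.51, 11.48 and 11.00 in controls and 11.86, 11.71, 11.91 and 12.22 with corticosteroid, with control replicate 1 above treated replicate 2. The log2 difference was 0.47 (SE 0.19), with an adjusted p of 0.499 in limma. It was 0.32 without control replicate 4. The other c-ring genes, ATP5G1 and ATP5G3, differed by -0.060 (SE 0.22) and -0.16 (SE 0.21). ATP5G3 was highest on control replicate 2, at 12.24 against 11.17 to 11.57 on the other controls, and differed by 0.050 without that array. ATP5G1 differed by 0.063 without corticosteroid replicate 3, and its sign also turned without control replicate 2 or 4 or corticosteroid replicate 2.

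The catalytic head subunits ATP5A1 (alpha) and ATP5B (beta) had lower means, with log2 differences of -0.26 (SE 0.21) and -0.24 (SE 0.23). ATP5A1 had log2 levels of 11.87, 12.34, 11.53 and 12.05 in controls and 11.95, 11.67, 11.24 and 11.90 with corticosteroid. The small F1 subunit ATP5D (delta) had a higher mean, with levels of 9.98, 9.79, 9.79 and 10.17 in controls and 10.12, 10.24, 10.19 and 11.00 with corticosteroid. Its log2 difference was 0.45 (SE 0.22), with an adjusted p of 0.543 in limma, and 0.25 without corticosteroid replicate 4. ATP5E (epsilon) differed by 0.17 (SE 0.14). The groups overlapped for each of these genes, and the alpha and beta differences moved to between -0.43 and -0.11 as arrays were left out.

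**Figure D5:**
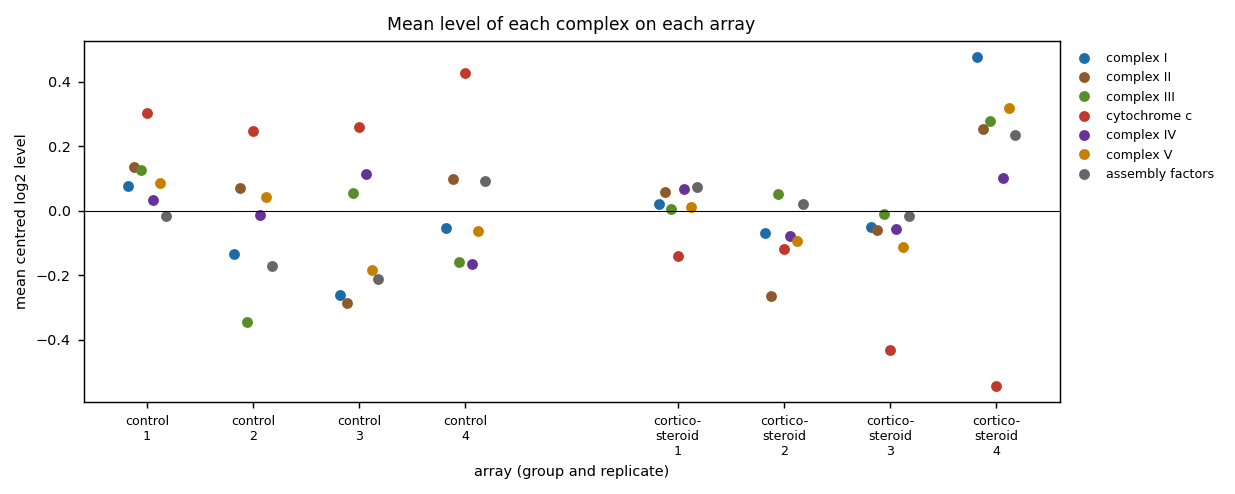
Mean centred log2 level of the members of each complex, of CYCS and of the assembly factors on each of the 8 arrays (vertical axis: mean over the genes of level minus gene mean). On corticosteroid replicate 4 every part but CYCS lies above 0, from 0.10 for complex IV to 0.48 for complex I, and CYCS lies at -0.54.

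The 4 genes grouped as assembly factors, of which ATP5S was placed there only for want of a better group, had higher means. Their median log2 difference was 0.12. NDUFAF3 differed by 0.33 (SE 0.18, adjusted p = 0.568 in limma), with log2 levels of 9.01, 8.96, 8.84 and 9.04 in controls and 9.43, 9.01, 9.15 and 9.57 with corticosteroid. Only treated replicate 2 lay within the control range. NDUFAF2, NDUFAF1 and ATP5S differed by 0.14 (SE 0.14), 0.056 (SE 0.18) and 0.091 (SE 0.22), and the last 2 changed sign without control replicate 3 and control replicate 2. A wider list of complex I assembly genes, which shares NDUFAF1 to NDUFAF3 with the members, had 8 of 8 higher means and a median log2 difference of 0.19, which was 0.11, with 6 of 8 higher, without control replicate 3. In it ECSIT, an assembly factor with a second role in innate immune signalling, differed by 0.43 (SE 0.22), and by 0.24 without corticosteroid replicate 4. Its groups were separate by a narrow margin, with 8.79 on control replicate 4 and 8.82 on corticosteroid replicate 2. Of the assembly genes of complexes II to V, 8 of 10 means were higher (median log2 difference 0.15). Only 5 of 10 were higher without control replicate 2 (median 0.080) or without corticosteroid replicate 4 (median 0.14), and the median was 0.098 without control replicate 3. HIGD2A, an assembly factor of complex IV and of supercomplexes, differed by 0.49 (SE 0.22) with no overlap, and by 0.30 without corticosteroid replicate 4. The inhibitor of the ATP synthase, ATPIF1, differed by 0.43 (SE 0.20), and ACAD9 and TACO1, assembly or translation factors of complexes I and IV, by 0.45 (SE 0.33) and 0.48 (SE 0.24). ACAD9 read 5.24 on control replicate 3 against 6.35 to 6.54 on the other controls. As arrays were left out, the differences fell to 0.27 for ATPIF1, 0.15 for ACAD9 and 0.36 for TACO1. None of these genes passed over all probe sets.

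The regulators of mitochondrial gene expression showed no common direction, with 6 of 11 means higher and a median log2 difference of 0.041. Leaving out corticosteroid replicate 1 gave a median of 0.0088, leaving out control replicate 4 gave 0.12, and averaging the probe sets of each gene gave -0.00070. With the filter at the 60th percentile the median was -0.27, with 2 of 7 means higher. With unmoved rows only it was -0.11, with 4 of 9 higher. PPARGC1A, the coactivator PGC-1alpha, had log2 levels of 7.88, 6.97, 6.91 and 8.18 in controls and 8.77, 6.77, 5.99 and 7.96 with corticosteroid. It differed by -0.11 (SE 0.57), with both groups widely spread, and ran from -0.58 to 0.35 as arrays were left out. TFAM, which packages and transcribes mitochondrial DNA, differed by -0.30 (SE 0.24). YY1, a transcription factor with targets among respiratory genes, differed by 0.34 (SE 0.15), but by 0.091 when its probe sets were averaged. Its groups did not overlap but all but met, at 10.573 on control replicate 3 and 10.576 on corticosteroid replicate 4. The kinase subunit PRKAA2 differed by 0.72 (SE 0.39) and the mitochondrial deacetylase SIRT3 by 0.27 (SE 0.19). The PRKAA2 difference was 0.38 without corticosteroid replicate 4. NRF1 and ESRRA were not analysed here.

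Other mitochondrial proteins that share a compartment or a pathway with cytochrome c lay on both sides. Among 24 import and chaperone genes, 14 means were lower, with a median log2 difference of -0.052, and 11 were lower, with a median of 0.027, without control replicate 4. In this list 2 genes with higher means and 2 with lower means had groups that did not overlap (8.33% each, against 3.4% and 2.02% of all genes tested). The matrix chaperonin pair HSPD1 and HSPE1 differed by -0.91 (SE 0.23) and -0.49 (SE 0.17), and neither gene's groups overlapped, and TIMM8A, an import chaperone of the intermembrane space, by -0.83 (SE 0.27). On the other side, the matrix chaperone TRAP1 and the import receptor TIMM50 lay higher on all treated arrays, with differences of 0.52 (SE 0.20) and 0.38 (SE 0.20). The TIMM50 difference was 0.21 without corticosteroid replicate 4. Of the 5 apoptosis genes tested, 4 had higher means (median log2 difference 0.028), and 2 without corticosteroid replicate 4 (median -0.037). BID, which helps to permeabilise the outer membrane, differed by -0.34 (SE 0.27). DIABLO and ENDOG, whose proteins leave the mitochondrion in apoptosis as cytochrome c does, lay higher on all treated arrays. That is 2 of 5 genes (40.0%), against 3.4% of all genes tested, in a list too short for its share to be read. DIABLO had log2 levels of 8.94, 8.33, 8.84 and 9.14 in controls and 9.31, 9.42, 9.80 and 9.50 with corticosteroid, a difference of 0.70 (SE 0.22). ENDOG had 7.17, 6.83, 7.00 and 7.32 in controls and 7.35, 7.77, 7.53 and 7.98 with corticosteroid, a difference of 0.58 (SE 0.19). The adjusted p-values of HSPD1, HSPE1, TIMM8A, DIABLO and ENDOG in limma were 0.469 to 0.479. Unlike CYCS, all 5 had treated values taken from another row than the deposited one.

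Second probe sets gave another reading of some members on the same samples. Of 17 such probe sets, 10 passed the filter, for 9 genes, and 5 of the 10 had the sign of the gene's main probe set. SDHB was the extreme case. Its main probe set read 11.81, 11.77, 11.95 and 12.30 on the treated arrays, and its second 9.53, 8.78, 9.55 and 6.83, so that corticosteroid replicate 4 was the highest array on one and by far the lowest on the other. NDUFS3 differed by 0.13 (SE 0.29) on the main and by 0.23 (SE 0.23) on the second probe set, and NDUFV2 by 0.15 (SE 0.14) and -0.062 (SE 0.19).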

How the data were processed

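Biceps femoris RNA from 8 samples, 4 control and 4 corticosteroid, was read on Affymetrix porcine arrays. The deposited values are log2 levels per probe set, as their range shows, and MAS5 is named per the submitters' processing notes. For scaling between arrays, a method was not given in the sources used here, and none was added. The corticosteroid values were re-assigned to probe set names sorted with full stops ignored. Probe sets with a mean log2 level above the 40th percentile entered limma 3.58.1 (R 4.3.3; two-sided, eBayes with its variance trend on mean level), with Benjamini-Hochberg adjustment over all 14361 probe sets and a threshold of 0.05. Symbols came from the platform annotation, and probe sets with several or no symbols (198 and 13732) were not named. Summaries used Python 3.11.15 and pandas 2.3.3, and the fit was tested on simulated data.

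Genes named were CYCS, up to 4 members of smallest p per complex, members without overlap, the isoform pairs, the member of widest spread, up to 3 genes of smallest p per other list, and PPARGC1A and TFAM. Further members, TRAP1 and TIMM50 were named after their values were seen. The members and lists were chosen with earlier results of these data known. Alternatives covered scaling, filters, an offset of 16, array weights, the trend, probe set choice, row order, a replicate block and left-out arrays. Same-numbered arrays did not deviate together (r = -0.246, 0.109, 0.105 and 0.053), so the numbers were not used as pairs. With 4 arrays per group their number limits the precision.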

Additional observations from a re-analysis of the deposited data

Results flagged for a closer look

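Of 98 groups of 4 arrays checked, 6 held 1 array far from the other 3, and 3 of the 6 were on corticosteroid replicate 4. Chance gives about 1 in 20 such groups. ATP5D had a log2 level of 11.00 on that array against 10.12 to 10.24 on the other treated arrays, and UQCR10 11.54 against 11.08 to 11.12. The mean centred level of complex I was 0.48 there against -0.071 to 0.022. NDUFB1 had 10.43 on control replicate 2 against 11.07 to 11.16 on the other controls. SDHC had 8.39 on corticosteroid replicate 2 against 9.07 to 9.15 on the other treated arrays. The mean centred level of complex II was -0.29 on control replicate 3 against 0.070 to 0.14 on the other controls.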

How the results depend on the processing

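Of the 69 genes named from the members and the mitochondrial lists, 52 kept their direction in every one of 20 settings that gave them a value. The 20 include the main fit and leave out the row order as deposited. Several of them, namely the filters, the variance settings, unmoved rows only and the replicate block, cannot alter the difference of a gene. Those settings therefore add nothing to the count of 52. With the rows as deposited, 5454 probe sets had an adjusted p under 0.05 in limma, 30 members had an unadjusted p under 0.05, and the median log2 difference was -0.066 over the members, -1.03 over complex II and -2.80 over complex IV. COX7A1 minus COX7A2 differed by -5.39 (two-sided exact permutation p = 0.0286). Direction turned for ATP5B (0.76), ATP5D (-0.28), COX5B (-5.14), COX6C (-2.90), COX7A1 (-5.94), DIABLO (-1.29), ECI2 (2.83), ECSIT (-2.18), HIGD2A (-1.01), IDH2 (-5.29), IDH3G (-4.63), NDUFA4 (-6.83), NDUFA8 (-6.37), NDUFAF1 (-0.69), NDUFS1 (-0.050), NDUFS3 (-4.40), NDUFV2 (-7.25), SDHA (-2.14), TACO1 (-1.01), TIMM50 (-3.46), UQCR10 (-6.72) and UQCRB (-4.68). These rows pair different probe sets in the 2 groups by construction. CYCS, with the same values, then had an adjusted p of 0.0112 in limma, against 0.310 to 0.772 elsewhere. With array weights, the median was 0.055 over the members, 0.087 over complex I, -0.035 over complex II, 0.052 over complex IV and -0.011 over complex V, and ATP5S was at -0.039, COX6A1 at 0.12, COX7A1 at -0.036, NDUFS7 at -0.055, SDHA at -0.054 and SDHB at -0.015. With the mean over probe sets, SDHB was at -0.23, NDUFV2 at -0.081, YY1 at 0.091 and ECI2 at -0.23, and the complex II median was -0.088. Without control array 2 and corticosteroid array 4, 3 members had an unadjusted p under 0.05, the complex IV median was -0.026, and ATP5G3 (0.017), ATP5S (-0.18), COX5B (-0.040), COX6A1 (0.31), COX7A1 (-0.19), COX7C (-0.037), NDUFA4 (-0.014), NDUFS7 (-0.19), SDHA (-0.050), SDHB (-0.10) and UQCR10 (-0.021) turned. The cause of these changes was not tested.

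With each array left out in turn, 0 to 1 probe sets passed, the 1 being AKR1CL1, no member, without control replicate 3. Members at an unadjusted p under 0.05 numbered 4 to 6. The median log2 difference ran from 0.018 to 0.15 over the members, 0.0085 to 0.22 over complex I, -0.045 to 0.12 over complex II, 0.042 to 0.13 over complex IV, -0.031 to 0.11 over complex V and 0.082 to 0.18 over the assembly factors. Direction turned for 27 of 64 members. Among the 69 named genes it turned for 14, which were ATP5G1 (-0.18 to 0.063), ATP5G3 (-0.31 to 0.050), ATP5S (-0.090 to 0.20), COX5B (-0.015 to 0.13), COX6A1 (-0.46 to 0.26), COX7A1 (-0.049 to 0.38), COX7C (-0.073 to 0.15), NDUFAF1 (-0.069 to 0.13), NDUFS1 (-0.025 to 0.26), NDUFS3 (-0.13 to 0.28), NDUFS7 (-0.11 to 0.28), PPARGC1A (-0.58 to 0.35), SDHA (-0.11 to 0.085) and SDHB (-0.027 to 0.15). COX7A1 minus COX7A2 ran from 0.33 to 1.02. Probe sets at an unadjusted p under 0.05 numbered 892 to 1783, 2160 with no filter, 828 with unmoved rows only and 6101 with rows as deposited.

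With the replicate number as a block, 0 probe sets passed in limma, 1332 had an unadjusted p under 0.05, and 4 members did. Not every array correlated best with its own number. The motif search planned for promoters was not run.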

Other observations

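No gene of the pathways that feed the respiratory chain passed over all probe sets. Of 20 tricarboxylic acid cycle genes, 15 had higher means with corticosteroid, with a median log2 difference of 0.10. The median was 0.025, with 10 of 20 higher, without corticosteroid replicate 4, 0.017 without control replicate 3, and 0.20 without control replicate 4. IDH3G, a subunit of the NAD-dependent isocitrate dehydrogenase, differed by 0.53 (SE 0.25), and IDH2, the NADP-dependent mitochondrial enzyme, by 0.35 (SE 0.21). The IDH3G difference was 0.30 without corticosteroid replicate 4. PC, pyruvate carboxylase, differed by 0.65 (SE 0.40), and read 9.80 on corticosteroid replicate 2 against 7.99 to 8.80 on the other treated arrays. As arrays were left out, the difference fell to 0.28 for PC and to 0.17 for IDH2. Of 20 fatty acid oxidation genes, 14 had higher means, with a median log2 difference of 0.11. Without corticosteroid replicate 4 it was 0.068, and without control replicate 3 it was 0.017, with 11 of 20 higher in both cases, or near the 54.0% of all genes tested. DECR1, which handles unsaturated fatty acids, differed by 0.62 (SE 0.24), and ECI2, an enoyl-CoA isomerase, by -0.51 (SE 0.23), or by -0.23 when its probe sets were averaged. ECHS1, enoyl-CoA hydratase, differed by 0.46 (SE 0.21).

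Carriers and pores of the mitochondrial membranes had 9 of 14 means higher, with a median log2 difference of 0.069. Without control replicate 2, 7 of 14 were higher and the median was -0.015. NNT, the proton-driven transhydrogenase of the inner membrane, lay lower on all treated arrays, with a difference of -0.32 (SE 0.16). Its groups all but met, at 9.273 on control replicate 4 and 9.266 on corticosteroid replicate 1. The oxoglutarate carrier SLC25A11 differed by 0.39 (SE 0.23), and by 0.20 without corticosteroid replicate 4. The ADP/ATP carrier SLC25A5 read 10.25 on control replicate 2 and 6.76 to 7.80 on the other 7 arrays, the array on which COX6A1 and COX7A2 were also highest.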
